A study of Homo sapiens with 15 samples.

Results

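Cells hold on to a laminin substrate through surface receptors, and 10 genes for such receptors and their close relatives were followed here through cardiac differentiation of H1, an established line of human embryonic stem cells. The 10 were named as a list (ITGA3, ITGA6, ITGA7, ITGB1, ITGB4, DAG1, BCAM, ITGA5, ITGAV and ITGB5), and all 10 were found by gene symbol among the 48777 genes of the deposited table. RNA from 15 libraries was sequenced, 3 each on days 0, 4, 9, 11 and 20 by their labels. The methods of the study name an earlier day in place of day 9 for these harvests, while its results name day 9, and the labels were followed. Day 0 was the undifferentiated state in Nutristem medium. Day 4 was the confluent culture at which differentiation began, with the Wnt activator CHIR99021 and later the Wnt inhibitor IWP2 in RPMI medium with B27 lacking insulin. Days 9 and 11 were progenitor stages and day 20 a later stage. The labels give a coating of the recombinant laminins LN-521 and LN-221 for every sample. The deposited sample table gives only LN-521 for the day 0 libraries and both laminins for all later days. Substrate and time therefore cannot be told apart in any comparison with day 0. All cells came from this single line.

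Integrins are pairs of an alpha and a beta chain, and the alpha chain largely sets which matrix protein is bound. The chains ITGA3, ITGA6 and ITGA7 pair with ITGB1 to form laminin receptors, and ITGA6 also pairs with ITGB4, the beta chain of epithelial hemidesmosomes. DAG1 encodes dystroglycan, which binds laminin through its sugar chains and links it to dystrophin, and BCAM is an immunoglobulin-family receptor for the laminin alpha 5 chain carried by LN-521. ITGA5 with ITGB1 is the classical fibronectin receptor, and ITGAV with ITGB1, ITGB5 and other beta chains binds vitronectin and other proteins with an RGD motif. In muscle, ITGA7 with ITGB1 and dystroglycan are the main laminin receptors. On GRCh38 with GENCODE v44, the members called on day 11 against day 0 lie as follows. ITGA6 (ENSG00000091409) spans chr2:172427354-172506459 and ITGAV (ENSG00000138448) chr2:186590010-186680901, both on the plus strand. ITGB4 (ENSG00000132470) spans chr17:75721328-75757818 on the plus strand and ITGA5 (ENSG00000161638) chr12:54395261-54419266 on the minus strand. Values cover the exons of each whole gene, so splice forms were not told apart.

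Library totals ran from 11990302 to 33469703 counts. RNA integrity numbers (RIN) were 8.8 or higher except in day 20 replicate 2, at 6.1. That library also held reads on genes that were silent up to day 11, at a median of 7.19 reads per kb over 252 genes when annotated exon lengths were used and 11.0 over 174 genes with the lengths behind the deposited TPM. In day 0 replicate 3 1 very short transcript took 20.0% of all TPM, and in day 9 replicate 1 it took 17.0%, which lowers the TPM of every other gene in those libraries. The summed TPM of 6 pluripotency markers was 6210 to 9299 on day 0 and 102.5 to 130.8 on day 20, and that of 6 cardiomyocyte markers rose from 10.51 to 15.07 on day 0 to 5085 to 21840 on day 20. Replicates of the late days differed in their markers. The mesenchymal and fibroblast sum was 21820 in day 20 replicate 3 against 2522 and 1123 in the other replicates of that day, and the epithelial and endoderm sum was 1121 in day 20 replicate 2 against 17900 and 19870. The endothelial sum was 33.71 to 150.5 TPM on day 20 and the epicardial sum 22.31 to 105.8, both highest in replicate 3. In that library TEK, which averaged 63.53 TPM on day 0, gave 141 TPM of the endothelial sum. PECAM1, CDH5 and ESAM were lowest there among the day 20 replicates, and VWF was highest in replicate 2. UPK3B (62.3 TPM) and WT1 (32.1) gave most of its epicardial sum, while TBX18 was lowest there and ALDH1A2 highest in replicate 2.

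Before differentiation ITGB1 and ITGA6 had the highest deposited TPM of the set. ITGB1 stood at 373, 453.4 and 282.8 TPM (a level corrected for transcript length and scaled to the same total in every library) in the 3 day 0 libraries, and ITGA6 at 361, 310.1 and 281.8. These levels overlapped, and all 3 ITGA6 values lay above the highest DAG1 value of 258. DAG1 averaged 234.7 ± 20.5 TPM (SD, n = 3), ITGB5 139.6 ± 78.8 and BCAM 122.3 ± 16.9. The remaining chains were lower, from ITGAV at 87.63 through ITGA7 at 40.44, ITGA5 at 31.51 and ITGA3 at 24.21 to ITGB4 at 11.09. DAG1 and ITGB5 overlapped between replicates, as did ITGB5 and BCAM, ITGA7 and ITGA5, and ITGA5 and ITGA3, so the order within those neighbours is not fixed by the replicates. The lengths behind the TPM equal the annotated exon lengths to within a few percent for 7 members but are 41.3% of them for ITGB1, 42.5% for ITGAV and 70.2% for ITGA7, which bears on levels between genes and not on changes of a gene over time. Rescaled to annotated exon lengths, ITGA6 came first on day 0 at 310.7, followed by DAG1 at 226 and ITGB1 at 152.6, and ITGA6 also led on day 4.

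**Figure D1:**
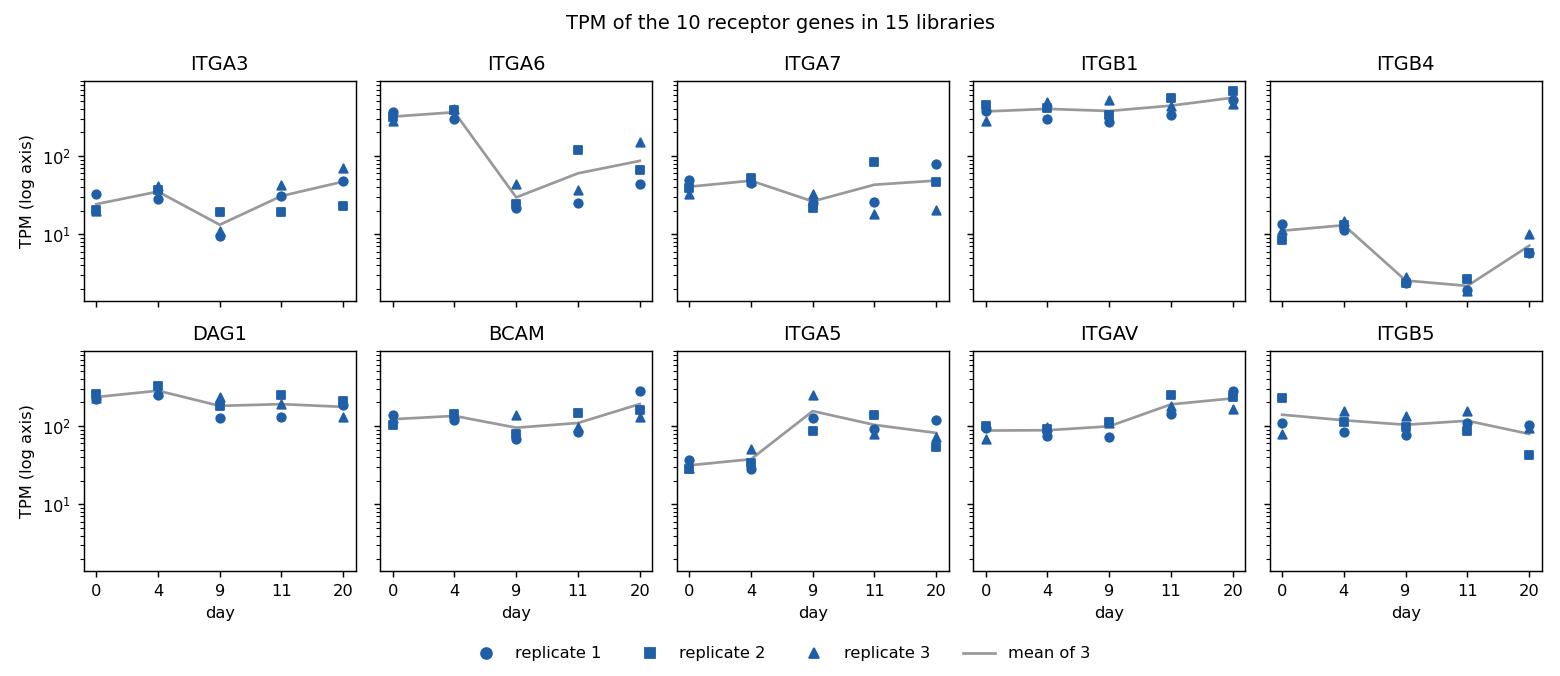
Level of each of the 10 genes, in TPM on a log axis, against day, with a point for each of 3 replicates and a line through their mean. ITGA6 and ITGB4 drop between days 4 and 9, ITGA5 climbs over the same interval, and ITGB1 has the highest deposited TPM on every day, an order that holds only on day 20 with annotated exon lengths.

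Between days 0 and 4, when the cells grew to confluence, none of the 10 members passed an adjusted p of 0.05 in edgeR's quasi-likelihood test, fitted over all 20964 tested genes with Benjamini-Hochberg adjustment. The background was the same, with 0% of all genes called higher and 0% lower; 741 genes had an unadjusted p under 0.05, and DESeq2 called 0 of its tested genes. The member with the largest change was ITGA3, with a log2 fold change of 0.48 ± 0.19 (SE, edgeR adjusted p = 0.885). ITGA6 averaged 317.6 TPM on day 0 and 361.6 on day 4. All 10 members overlapped between the replicates of these days, where 10% of all tested genes did not.

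The exchange of receptors fell between days 4 and 9. On day 9, 5 members were lower than on day 4 and 1 was higher, where 24.7% of all 21252 tested genes were called lower and 24.3% higher. ITGA6, ITGB4, ITGA3, ITGA7 and DAG1 fell and ITGA5 rose, while ITGB1, ITGB5, BCAM and ITGAV did not pass the test. The median log2 fold change was -0.55 over the 10 members and 0.0129 over all tested genes. In bulk RNA such as this, fewer cells of a type and less RNA per cell cannot be told apart.

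ITGA6, the alpha chain of the main laminin receptor of pluripotent cells, fell furthest. Its level was 295, 388.6 and 401.2 TPM on day 4 and 21.41, 24.02 and 43.24 on day 9, so the groups lay far apart, with means 12.2-fold higher on day 4. The log2 fold change was -3.58 ± 0.31 (SE, edgeR adjusted p = 7.92e-05). ITGA6 stayed past the threshold in all 15 alternative analyses of this comparison, with log2 fold changes of -3.97 to -3.39 and adjusted p of up to 0.00193.

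ITGB4, whose only known partner is ITGA6, fell with it. It measured 11.34, 12.93 and 14.82 TPM on day 4 and 2.396, 2.41 and 2.882 on day 9, a log2 fold change of -2.32 ± 0.17 (edgeR adjusted p = 2.47e-05). The day 9 values of this low-level gene rested on 80 to 144 counts per library. Over the 15 libraries, levels of PDPN, C1R and TBC1D8B followed ITGB4 most closely among 12175 protein-coding genes, with Pearson r of 0.987, 0.984 and 0.978 in log2 CPM. These libraries share days and depths, so the values are a description only.

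The other laminin-binding alpha chains fell less. ITGA3, which binds laminins with the alpha 3 or alpha 5 chain, went from 27.95, 36.32 and 40.83 TPM to 9.439, 19.18 and 10.97, a log2 fold change of -1.41 ± 0.24 (edgeR adjusted p = 0.00178). ITGA7 went from 44.84, 52.25 and 47.72 TPM to 25.16, 21.49 and 32.2, with -0.85 ± 0.18 (edgeR adjusted p = 0.00471). The replicates did not overlap for either gene, where 60% of all tested genes did not overlap in log2 CPM. ITGA7 missed the threshold when all 15 libraries shared a fit (edgeR adjusted p = 0.205).

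DAG1 moved from 251.3, 322.8 and 274.8 TPM on day 4 to 125.8, 181.3 and 236.2 on day 9. The log2 fold change was -0.63 ± 0.22 and only just passed (edgeR adjusted p = 0.0442). The call was lost on leaving out any 1 of the day 4 libraries (edgeR adjusted p = 0.0661, 0.142 and 0.0897 without replicates 1, 2 and 3). It was also lost without day 9 replicate 1 or 2 (0.133 and 0.1), with the sequencing lane as a block (0.0715) and with all 15 libraries in a fit (0.082). The 3 limma fits did not pass either (adjusted p = 0.0619 to 0.0956). In all, 11 of 15 alternatives lost the call, with log2 fold changes of -0.874 to -0.431 over the 15. BCAM, at 134.7 ± 13.7 TPM on day 4 and 95.25 ± 36.51 on day 9, did not pass (log2 fold change -0.47 ± 0.26, edgeR adjusted p = 0.164). Its day 9 replicate 3 was high, at 136.9 TPM, and without that library BCAM was lower with a log2 fold change of -0.84 (adjusted p = 0.000612).

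Among the chains that do not chiefly bind laminin, ITGA5 rose. It stood at 27.96, 34.14 and 50.96 TPM on day 4 and 127.6, 86.23 and 252.1 on day 9, without overlap and with a 4.12-fold higher mean. Of all tested genes, 60% did not overlap between these days in log2 CPM. The log2 fold change was 2.09 ± 0.43 (edgeR adjusted p = 0.00513), and the call was lost only when genes of low count were kept in the fit (adjusted p = 0.0671). ITGAV was at 88.44 ± 12.18 TPM on day 4 and 99.24 ± 22.80 on day 9 (log2 fold change 0.18 ± 0.17, edgeR adjusted p = 0.423). ITGB5 was at 118.5 ± 37.0 and 103.9 ± 29.4 TPM (edgeR adjusted p = 0.635).

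The shared partner ITGB1 showed no detectable change. Its mean was 399 ± 98.5 TPM on day 4 and 375.1 ± 129.9 on day 9, a log2 fold change of -0.06 ± 0.28 (edgeR adjusted p = 0.864). In deposited TPM it was the highest of the 10 members on all 5 days, with means from 369.7 to 553.7, whereas with annotated exon lengths it came first only on day 20, behind ITGA6 on days 0 and 4 and DAG1 on days 9 and 11. It passed the threshold in none of the 6 comparisons. BCAM and ITGB5 likewise passed in none of them.

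Taking the 5 alpha chains as shares of their summed TPM shows how the set turned over. ITGA6 made up 62.72%, 62.49% and 65.16% of the sum on day 0 and 62.71%, 64.32% and 62.84% on day 4, then 8.347%, 9.074% and 9.62% on day 9. ITGA5 and ITGAV together held 21.02% to 23.29% on day 4 and 75.56% to 80.77% on day 9. The majority thus passed from laminin-binding to RGD-binding chains in all 3 day 9 libraries. The sum itself averaged 571.1 ± 88.8 TPM on day 4 and 323.6 ± 109.1 on day 9, and the laminin-binding part went from 444.9 ± 67.1 to 69.04 ± 15.66 TPM. Within the laminin-binding chains, the share of ITGA6 was 80.21% to 81.92% on day 4 and 37.13% to 50.04% on day 9, and that of ITGA7 went from 9.742% to 12.19% up to 33.22% to 44.92% while its own level fell. These shares are descriptions with no test, of transcripts and not of receptor on the surface.

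**Figure D2:**
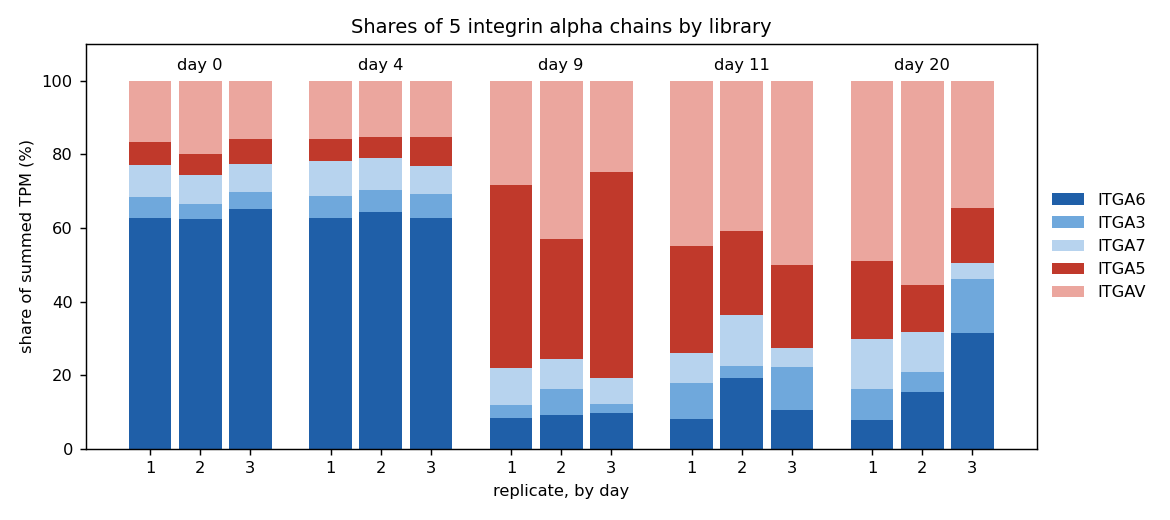
Share of each alpha chain in the summed TPM of 5 integrin alpha chains, in percent, with a stacked bar for each library. Blue shades are the laminin-binding chains and red shades the RGD-binding chains, which held under 26% on days 0 and 4 and 49.55% to 80.77% from day 9 on.

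Between days 9 and 11, none of the 10 members passed, where 1.39% of 20679 genes were called higher and 1% lower. The nearest were ITGAV and ITGA3. ITGAV measured 72.96, 113.8 and 111 TPM on day 9 and 140.6, 249.4 and 177.8 on day 11, without overlap. Of all tested genes, 24.1% did not overlap between these days in log2 CPM. The log2 fold change of ITGAV was 0.88 ± 0.24 (edgeR adjusted p = 0.117). ITGA3 measured 30.8, 19.45 and 42.09 TPM on day 11, above its day 9 values, with 1.20 ± 0.34 (edgeR adjusted p = 0.123). With DESeq2 both passed (adjusted p = 0.0235 for ITGAV and 0.0147 for ITGA3), and ITGA3 also passed with the sequencing lane as a block (adjusted p = 0.0236), so these calls depend on the processing.

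Replicates of day 11 differed widely in ITGA6 and ITGA7. ITGA6 stood at 25.23, 117.8 and 36.89 TPM and ITGA7 at 25.81, 84.8 and 18.09, with replicate 2 high in both. The cardiomyocyte marker sum was 6011, 20860 and 3849 in these libraries, so the same replicate was high. On day 20 ITGA7 was 77.98, 46.68 and 20.51 TPM beside cardiomyocyte sums of 21840, 21230 and 5085, and replicate 3 was the lowest in both. ITGA6 on day 20 was 43.9, 65.56 and 149.8 TPM, highest in replicate 3, which also had the highest mesenchymal sum. The epithelial and endoderm sum was nearly as high in replicate 1 (17900) as in replicate 3 (19870), although replicate 1 was lowest in ITGA6. The endothelial and epicardial sums were highest in replicate 3 too, but the markers in those lists did not move together. On day 11 the library highest in ITGA6 had the lowest mesenchymal sum, 1030 against 2843 and 6099. The part of cell composition in these values was not tested.

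**Figure D3:**
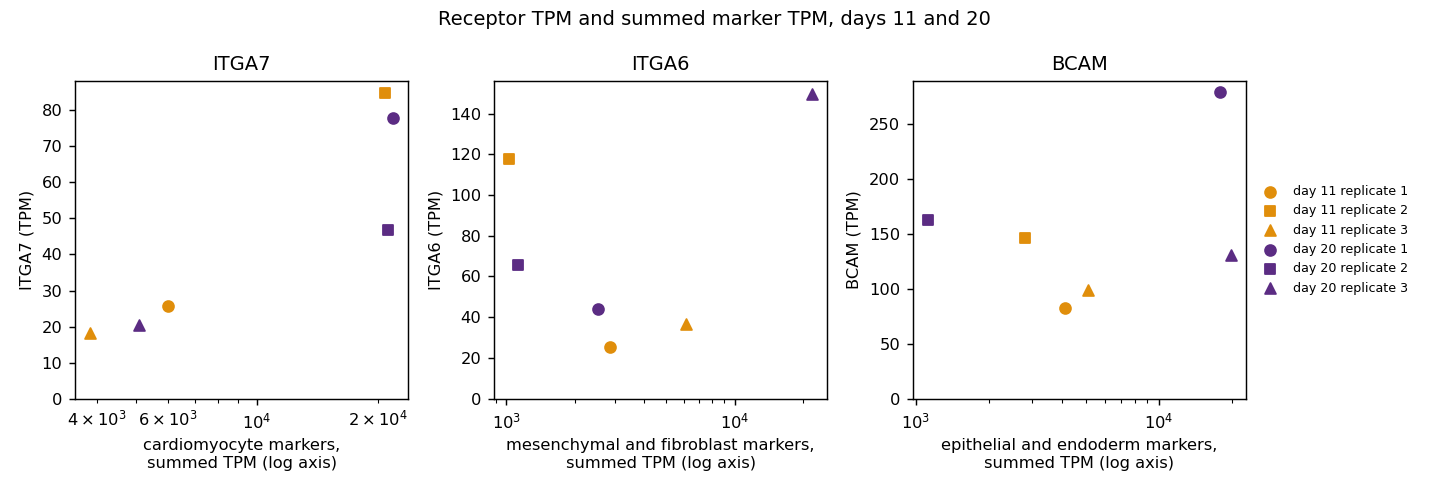
TPM of ITGA7, ITGA6 and BCAM against the summed TPM of a marker list (log axis) in the 6 libraries of days 11 and 20, a point for each library; the pairings were chosen after the values were seen. The 3 libraries with cardiomyocyte sums of 20860 or more hold the 3 highest ITGA7 values, 46.68 to 84.8 TPM.

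Between days 11 and 20, again none of the 10 members passed, where 1.12% of 21398 genes were called higher and 0.435% lower. ITGB4 came nearest, at 1.967, 2.706 and 1.89 TPM on day 11 and 5.764, 5.694 and 9.931 on day 20, without overlap. Of all tested genes, 22.4% did not overlap between these days in log2 CPM. The log2 fold change of ITGB4 was 1.62 ± 0.42 (edgeR adjusted p = 0.102), and DESeq2 gave an adjusted p of 0.00828. In day 20 replicate 2 ITGB4 had 151 reads, and the density on silent genes corresponds to 32.2% of them with annotated lengths or 49.0% with the lengths behind the TPM. The second set of lengths was taken up after the first value had been seen. For the other members that share was at most 12.3%, reached by ITGA3. BCAM measured 279.4, 162.7 and 131.2 TPM on day 20 against 82.89, 146.5 and 98.65 on day 11, with overlap (log2 fold change 0.70 ± 0.40, edgeR adjusted p = 0.439).

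Set against the undifferentiated state, the day 11 progenitors had 2 members higher and 2 lower, where 20.3% of 21229 genes were called higher and 19.8% lower. This comparison and that of day 20 share the day 0 libraries, for which the deposited sample table gives LN-521 alone. Substrate and time cannot be told apart in either. ITGA5 was 3.28-fold higher on average, at 90.98, 139.9 and 79.51 TPM against 36.98, 28.14 and 29.42 (log2 fold change 1.60 ± 0.23, edgeR adjusted p = 0.000864). ITGAV was 2.16-fold higher, with 95.41, 98.87 and 68.62 TPM on day 0 (log2 fold change 1.01 ± 0.22, edgeR adjusted p = 0.00694). Both rises held in all 14 alternative analyses. ITGB4 was lower, at 13.5, 8.374 and 11.4 TPM on day 0 (log2 fold change -2.46 ± 0.28, edgeR adjusted p = 0.000277), as was ITGA6 (-2.53 ± 0.52, edgeR adjusted p = 0.00569). ITGA6 lost its call only with low-count genes kept in the fit (adjusted p = 0.0677).

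ITGA7, the muscle laminin receptor, was not different on day 11 from day 0 in this test (log2 fold change -0.03 ± 0.49, edgeR adjusted p = 0.968). Without day 11 replicate 2, the library with the high cardiomyocyte sum, it was lower by a log2 fold change of -0.95 (adjusted p = 0.00869). ITGA3, ITGB1, BCAM, ITGB5 and DAG1 did not pass, with log2 fold changes of -0.42 to 0.27.

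On day 20, 1 member was higher and 1 lower than on day 0, where 16.1% of 21988 genes were called higher and 11.3% lower. Of all tested genes, 46.7% did not overlap between these days in log2 CPM. ITGAV was 277, 235.8 and 165 TPM on day 20, all above its day 0 values, with a log2 fold change of 1.13 ± 0.30 (edgeR adjusted p = 0.0269). ITGA6 was lower in every library, with -2.08 ± 0.51 (edgeR adjusted p = 0.0186). ITGA5, at 119.8, 53.7 and 71.66 TPM, also lay above all its day 0 values but missed the threshold (1.17 ± 0.40, edgeR adjusted p = 0.0589). It passed with DESeq2 (adjusted p = 0.0307), with upper-quartile scaling (0.0314), with all 15 libraries in a fit (0.0419) and in all 3 limma fits (0.0135 to 0.0172). DAG1 lay below all its day 0 values (log2 fold change -0.70 ± 0.29, edgeR adjusted p = 0.107). ITGB1 lay above all its day 0 values (0.32 ± 0.29, edgeR adjusted p = 0.455). With all 15 libraries in a fit, DAG1 and ITGB4 passed as lower (edgeR adjusted p = 0.0394 and 0.0287).

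The day 20 calls were sensitive to leaving out a library. ITGA6 missed the threshold without day 0 replicate 1, 2 or 3 (adjusted p = 0.0535, 0.0635 and 0.0643), with log2 fold changes of -2.13, -2.16 and -2.15. ITGAV missed it without day 0 replicate 1, 2 or 3 (adjusted p = 0.159, 0.0979 and 0.219), with log2 fold changes of 1.04, 1.16 and 0.96, and without day 20 replicate 1 (0.79, adjusted p = 0.0868). These fits hold fewer libraries, and without a day 0 library the folds of both genes stayed close to those of the full fit. Without day 20 replicate 2, the library of low RIN, ITGA5 and ITGA3 passed as well, with log2 fold changes of 1.49 (adjusted p = 0.00511) and 1.20 (adjusted p = 0.0122). Without day 20 replicate 3, ITGB4 passed as lower, at -1.33 (adjusted p = 0.044).

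**Figure D4:**
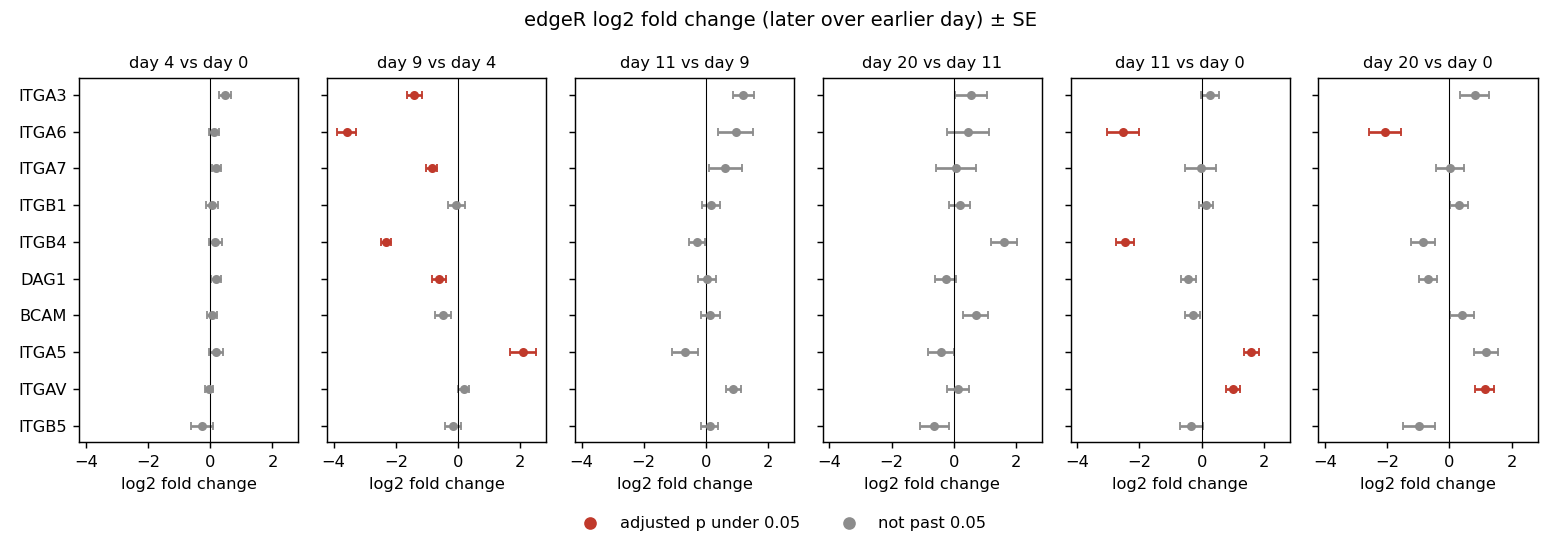
edgeR log2 fold change of the 10 genes (later over earlier day) in 6 comparisons, with bars of 1 SE; red points have an adjusted p under 0.05. Red points stand at day 9 against day 4 (6 genes), day 11 against day 0 (4 genes) and day 20 against day 0 (2 genes), and none in the other comparisons.

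By day 20 the order of levels in deposited TPM had changed. With annotated exon lengths ITGAV, at 95.93, came after ITGB1, BCAM and DAG1. In deposited TPM ITGB1 was followed by ITGAV at 225.9 ± 56.7 TPM, BCAM at 191.1 ± 78.1 and DAG1 at 175.9 ± 42.4, and these 3 overlapped. ITGA6 came next at 86.43 ± 55.96 TPM, overlapping with DAG1 above it and ITGA5 below it. ITGA5 and ITGAV together held 70.07%, 68.19% and 49.55% of the alpha chain sum, lowest in replicate 3. Among the beta chains ITGB1 held 65.66% to 75.68% of the deposited TPM of ITGB1, ITGB4 and ITGB5 on day 0 and 81.8% to 93.36% on day 20. With annotated exon lengths its mean share was 52.15% on day 0 and 72.49% on day 20.

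Hemidesmosome partners of ITGB4, and tetraspanins and other laminin-binding surface proteins, were examined through lists. Of 4 hemidesmosome genes, 3 fell between days 4 and 9, where 24.7% of all tested genes fell. They were PLEC, the plectin that ties ITGB4 to keratin filaments (log2 fold change -0.92), DST (-1.42) and COL17A1 (-1.50, from 1.772 to 0.6209 TPM). COL17A1 rose again by day 20 (3.33 over day 11, to 6.445 TPM). Of 10 tetraspanins and other laminin-binding surface proteins, 5 fell and 1 rose between days 4 and 9, against 24.7% and 24.3% of all tested genes. CD9, a tetraspanin that associates with laminin-binding integrins, went from 242.9 to 21.3 TPM (log2 fold change -3.48 ± 0.30, edgeR adjusted p = 9.31e-05). The syndecan SDC1 fell by 1.86 on the log2 scale and SDC4, a syndecan that acts with ITGA5 on fibronectin, rose by 0.74. CD44, the hyaluronan receptor, rose between days 11 and 20, from 1.854 to 30.9 TPM (log2 fold change 4.00). The list medians between days 4 and 9 were -1.17 for the hemidesmosome genes and -0.70 for the surface proteins.

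Dystroglycan binds laminin only after sugar is added by a chain of enzymes, and 13 of these were tested. Between days 4 and 9, 5 fell and 3 rose (all tested genes: 24.3% higher, 24.7% lower). LARGE2, an enzyme that builds the laminin-binding sugar, went from 128 to 8.053 TPM (log2 fold change -3.95 ± 0.23, edgeR adjusted p = 9.88e-06). It was also lower on day 20 than on day 0, with a log2 fold change of -4.23. Among 12 tested genes of the dystrophin-glycoprotein complex, 3 fell and 3 rose between days 4 and 9, shares near those of all tested genes (24.7% and 24.3%), with DTNA at -1.56. On day 11, 4 of 13 tested genes of the complex were higher than on day 0 and 1 was lower, against 20.3% and 19.8% of all tested genes. Among them SGCA, DMD (dystrophin) and UTRN (utrophin) were higher by 2.77, 1.55 and 0.73 on the log2 scale, and DTNA was lower (-1.93). SGCA measured 3.059, 11.55 and 0.7816 TPM on day 11 against 0.9997, 0.4412 and 0.6307 on day 0. These values overlapped, and day 11 replicate 2, the library with the high cardiomyocyte sum, carried much of the mean.

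Of 15 other integrin chains tested on day 9 against day 4, 4 rose and 4 fell, shares near those of all tested genes (24.3% and 24.7%). ITGA8, an RGD-binding alpha chain that pairs with ITGB1, went from 0.05987 to 38.58 TPM (log2 fold change 9.25 ± 1.07, edgeR adjusted p = 0.00034). Its day 9 libraries measured 16.75, 86.31 and 12.67 TPM, so replicate 2 carried much of the mean, and all 3 lay above the day 4 values. On day 11 it measured 53.26, 16.6 and 75.7 TPM. ITGA4, a partner of ITGB1 that binds fibronectin and VCAM1, fell from 4.821 to 0.2775 TPM (-4.12). ITGB6, an ITGAV partner of epithelia, was at 13.09 TPM on day 20 against 0.2141 on day 0 (5.79). Its day 20 libraries measured 7.726, 6.016 and 25.54 TPM, beside epithelial and endoderm sums of 17900, 1121 and 19870 that came largely from AFP and APOA1.

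Genes that act on the inner side of integrins gave 6 rises and 3 falls among 20 between days 4 and 9 (all tested genes: 24.3% higher, 24.7% lower). SRC rose by 1.83 and PARVA, a parvin, by 1.86 on the log2 scale. ITGB1BP2, the muscle protein melusin that binds the tail of ITGB1, fell from 9.112 to 2.972 TPM (-1.58) and then rose to 32.22, 117 and 33.53 TPM on day 11 (4.27 ± 0.58, edgeR adjusted p = 0.0208), highest in the replicate with the high cardiomyocyte sum. On day 11, 8 of the 20 were higher than on day 0 and none was lower, against 20.3% and 19.8% of all tested genes.

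The ligands moved as well. Of 11 laminin chains, 3 rose and 7 fell between days 4 and 9 (all tested genes: 24.3% higher, 24.7% lower). LAMA1 rose from 110.9 to 391.2 TPM (log2 fold change 1.84) and LAMB1 from 129.1 to 315.5 (1.29). LAMA2, the alpha chain of muscle laminin, fell from 31.46 to 4.201 TPM (-2.87) and rose to 220.1 by day 20 (5.28 over day 11, edgeR adjusted p = 0.0212). LAMA4, the alpha chain of LN-411 and related laminins, rose from 0.2906 TPM on day 9 to 21.32 on day 11 (6.20) and averaged 148.3 on day 20. Of 7 listed genes for matrix proteins with an RGD motif, 6 were tested, and fibronectin, the ligand of ITGA5 with ITGB1, was not among those 6. No level was obtained for fibronectin, so its expression is not known here. Of the 6 tested, 5 rose and 1 fell between days 4 and 9 (all tested genes: 24.3% higher, 24.7% lower). TNC (tenascin C) went from 3.236 to 368.6 TPM (6.85) and VTN (vitronectin) from 1.845 to 28.88 (3.95), while SPP1 (osteopontin) fell (-2.29). VTN rose further to 128.2 TPM on day 11 (2.13).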

How the data were processed

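Ribosome-depleted, stranded total RNA libraries were sequenced in pairs of reads. The authors aligned them to GRCh38 with STAR 2.5.2b and counted reads over genes with featureCounts 1.5.1; these whole-number counts were deposited after taking out ribosomal and mitochondrial genes. The deposited TPM, which correct for transcript length and sum alike in each library, were computed by the authors from those counts. The sample table deposited with them gives RIN, a score of RNA integrity, and the fraction of uniquely mapped reads. The strand setting used in counting is not given in the sources used here; 5 members share up to 2.75% of their exon bases with a gene on the opposite strand.

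Gene symbols were taken from GENCODE v44. Each pair of days (6 libraries) was fitted with edgeR 4.0.16 (quasi-likelihood, robust, TMM, filterByExpr with a minimum count of 10 and total of 15), adjusted by Benjamini-Hochberg over all genes, with a threshold of 0.05. The SE is the absolute log2 fold change over the square root of F. DESeq2 1.42.0 and limma 3.58.1 (on log2 of TPM plus a pseudocount of 1 or 0.1) were alternatives. Fits were also run on simulated counts, drawn from the kind of model that edgeR fits and without an outlying library. That check does not bear on calls lost on leaving out a library. Replicates are labelled biological, with no statement on how cultures were separated. Day 20 replicates 1 and 2 carry the same plate number, 2, so how far they are independent is not known. The p-values rest on the spread between these samples. The members and lists were chosen with earlier results of these data known. All 10 members were described. From other lists, genes past the threshold with at least 1 TPM were named by size of change, up to 3 each way on day 11 against day 0 and 2 in other comparisons (all, in lists with at most 5 calls), and some of these genes are not reported here. For each member the 3 most correlated genes were sought. Depth limits low genes such as ITGB4.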

Additional observations from a re-analysis of the deposited data

How the results depend on the processing

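Of 89 recounts of members past the threshold, 75 stayed within 1.5 times the reported count. For day 11 against day 9 (reported 0), DESeq2 gave 2, keeping low-count genes 1, and the sequencing lane as a block, an alternative chosen after seeing the data, 1. The plate number as a replicate block gave 2 (ITGA3 and ITGAV), with 1171 genes higher and 800 lower. Only 2 pairs of these days share a plate number, and same-plate libraries correlated at 0.215 and 0.454; for day 20 against day 11 the values were -0.217, -0.026 and 0.407, so a pairing by plate was not established. For day 20 against day 11 (reported 0), DESeq2 and the fit of all 15 libraries each gave 1, and the plate block 0. For day 20 against day 0 (reported 2), a threshold of 0.01 gave 0, all 15 libraries 5, low-count genes kept 1, and leaving out a library 0 to 4. Over all genes, calls between days 9 and 11 (288 higher, 207 lower) became 945 and 726 with DESeq2 and 0 and 0 without day 9 replicate 1; between days 11 and 20 (239 and 93) they became 1305 and 559 with DESeq2, and 0 and 0 without day 11 replicate 1. The cause was not tested. Upper-quartile scaling moved the median of all genes between days 11 and 20 from 0.0656 to 0.1769.

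Of 890 refitted log2 fold changes, 48 changed sign, all of members not past the threshold. ITGAV on day 4 against day 0 became 0.022 in all 3 limma fits. ITGA7 became -0.141 on day 11 against day 9 with the plate block, -0.036 on day 20 against day 11 with low-count genes kept, and on day 20 against day 0 -0.007 with all 15 libraries and -0.171 with low-count genes kept. DAG1 became -0.012 on day 11 against day 9 with upper-quartile scaling. Leaving out a library gave these ranges. Day 4 against day 0: ITGB1 -0.112 to 0.213, ITGB4 -0.041 to 0.31, BCAM -0.085 to 0.218, ITGA5 -0.081 to 0.347, ITGAV -0.11 to 0.05 and ITGB5 -0.525 to 0.222. Day 9 against day 4: ITGB1 -0.382 to 0.116 and ITGB5 -0.412 to 0.077. Day 11 against day 9: ITGA7 -0.312 to 0.991, DAG1 -0.189 to 0.274, BCAM -0.109 to 0.505 and ITGB5 -0.158 to 0.374. Day 20 against day 11: ITGA6 -0.388 to 1.327, ITGA7 -0.648 to 0.966, ITGB1 -0.005 to 0.308 and ITGAV -0.177 to 0.313. Day 11 against day 0: ITGA3 -0.062 to 0.535, ITGA7 -0.95 to 0.316, ITGB1 -0.005 to 0.323 and ITGB5 -0.62 to 0.178. Day 20 against day 0: ITGA7 -0.719 to 0.324 and BCAM -0.143 to 0.615. With GENCODE v44 exon lengths the RGD-binding share was 16.08% on day 0 and 62.38% on day 11, against 23.76% and 70.06% as reported. On day 20 the mean levels rescaled to those lengths were 95.93 for ITGAV and 83.86 for ITGA5. The laminin-binding chains then stood at 84.54 for ITGA6, 47 for ITGA3 and 33.96 for ITGA7, so the size of the RGD-binding share on day 20 also depends on the lengths used.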

Other observations

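Further genes followed the members closely over the 15 libraries, given as descriptions with no test. For ITGA5 these were FGD6, TMC6 and CHRD (Pearson r 0.979, 0.96 and 0.954), for ITGA6 DEGS1, TRIP11 and PIPOX (0.953, 0.947 and 0.947), and for ITGAV MFSD11, CYB5R1 and NBEAL1 (0.956, 0.941 and 0.933). For ITGB1 the closest gene, MUL1, reached only 0.823.

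NPNT, which encodes nephronectin, a ligand of the ITGA8 receptor, averaged 2.524 TPM on day 0 and measured 7.078, 4.597 and 155.8 in the day 11 libraries and 89.64, 87.32 and 920.8 on day 20, with replicate 3 far above the others on both days (log2 fold change of day 20 over day 0 7.06 ± 1.18, edgeR adjusted p = 0.00418). TGFB1, whose latent form is bound by ITGAV integrins, averaged 12.73 TPM on day 0, 98.88 on day 11 and 86.43 on day 20 (day 11 over day 0 2.86 ± 0.21, edgeR adjusted p = 2.93e-05). LAMA3, a laminin chain of epithelial basement membrane, was lower on day 11 than on day 0 (log2 fold change -3.49, from 2.006 to 0.1899 TPM).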
